A study of Mus musculus with 4 samples.

Results

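The genes of Wnt signalling were followed through 4 libraries of sorted mouse aortic cells. They were chosen by symbol alone: rows of the count table whose Ensembl identifier belongs to a protein-coding Wnt ligand, a Frizzled receptor (Fzd), the co-receptors Lrp5 and Lrp6, a secreted antagonist (Sfrp and Dkk families, Frzb, Wif1), the scaffolds Axin1 and Axin2, or the TCF/LEF transcription factors. This gave 37 of 32948 genes, namely 10 ligands, 10 Frizzled receptors, 2 co-receptors, 9 antagonists, 2 Axins and 4 TCF/LEF factors. The annotation holds 47 such symbols, and the other 10 were not analysed here.

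All cells came from the arch and the ascending part of the aorta. The animals were Wnt1-Cre;Rosa26-mTmG mice, whose age was not given in the sources used here. In this strain the promoter of Wnt1 drives Cre recombinase in the neural crest, and Cre switches a membrane reporter at the Rosa26 locus from red tdTomato to green GFP in the cell and its descendants. Cells of 1 female sample, and those of 2 male samples that had been pooled, were sorted by fluorescence into a GFP and a tdTomato fraction, which gave 1 library per fraction and sex. The comparison of the colours sets cells that once expressed Cre, or descend from such cells, against the remaining cells of their suspension, with 2 pairs as its only replicates, and the comparison of the sexes sets the female suspension against the pooled male one.

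Wnt proteins are secreted, lipid-modified ligands that bind a Frizzled receptor at the cell surface. With Lrp5 or Lrp6 they halt the Axin-based complex that marks beta-catenin for destruction, and beta-catenin then enters the nucleus and acts with TCF/LEF factors; Wnt5a and Wnt11 act mostly through other routes that steer cell shape and movement. Sfrp proteins, Frzb and Wif1 bind the ligands outside the cell, whereas Dkk1 and Dkk2 bind the co-receptors. In the embryo Wnt signals take part in forming the neural crest and the outflow vessels, and in the adult artery wall they are studied for their effects on smooth muscle growth and calcification.

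The libraries held 10094167 to 13911111 counts, and the GFP libraries detected fewer genes (12008 in female and 9517 in male with at least 10 counts) than the tdTomato libraries (16227 and 15669). Levels are given as CPM, counts scaled to a common library size. Where 4 values stand in a row, the female pair comes first and, within a pair, GFP precedes tdTomato. In this order 3 counts, the upper limit that 0 counts allow, were worth 0.238, 0.201, 0.319 and 0.216 CPM. The submitters labelled all cells as vascular smooth muscle cells. The 8 smooth muscle markers summed to 12097 to 16619 CPM with none at 0, but 10 adventitial fibroblast markers summed to 1532 CPM in male GFP and 3848 to 4786 CPM in the other libraries. The 10 endothelial markers summed to 108 and 606 CPM in the GFP libraries and to 464 and 318 CPM in their tdTomato partners, with Kdr and Egfl7 at 0 in both GFP libraries and Cdh5, Tek, Ptprb, Emcn and Tie1 also at 0 in male GFP. Of the 606 CPM in male GFP, Erg, a transcription factor, held 549 CPM, and 8 of the 10 markers were lower in GFP by at least 2-fold in both pairs. Schwann cell markers are given beside Wif1. In sorted bulk RNA, fewer cells of a type and less RNA per cell cannot be told apart.

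Several secreted antagonists differed between the colours in the same direction in both suspensions. Wif1 and Frzb were higher in GFP than in tdTomato cells of both suspensions, whereas Sfrp4, Dkk3 and Sfrp1 were lower. Among the receptors Fzd5 and Fzd3 were seen only in tdTomato libraries. Of the 37 genes, 26 had enough counts to enter the tests. In both pairs, 9 of these 26 were lower in GFP by at least 2-fold (Fzd3, Fzd4, Fzd5, Fzd7, Dkk2, Dkk3, Sfrp1, Sfrp4 and Axin1), against 22.9% of the 15055 genes tested. Higher by at least 2-fold in both were 3 of 26 (Wnt4, Frzb and Wif1), against 5.17% of all. Another 6 of 26 went in opposite directions in the pairs (Wnt5a, Fzd2, Fzd8, Fzd9, Lrp6 and Axin2), against 19.2% of all. Fzd3, Fzd5 and Axin1 passed the count filter through their tdTomato counts alone, so their direction follows from that filter. The median log2 ratio of GFP over tdTomato over the 26 genes was -1.14 in the female and -2.45 in the male pair (-0.98 and -2.45 with genes at 0 counts set to their bounds), beside -0.27 and -1.0 over all genes tested. Male GFP had the fewest genes detected, and without it the female pair alone remains, in which 14 of the 26 were lower in GFP by at least 2-fold (37.8% of all genes) and 6 higher (22.0%).

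No member passed the test of the colours. edgeR's quasi-likelihood test over the 2 pairs, with Benjamini-Hochberg adjustment, called 0.0% of all genes and 0 members at an adjusted p of 0.05, the smallest adjusted p being 0.577. Its unadjusted p was under 0.05 for 8.62% of all genes and for 3 members, Wif1, Fzd3 and Fzd5. DESeq2 on the same pairs called 7.69% of all genes (7.36% lower in GFP) and 4 members, each lower in GFP: Fzd5 (adjusted p = 0.00636), Axin1 (0.0212), Fzd3 (0.0301) and Sfrp4 (0.031). limma-voom called 0.0% of genes and 0 members, with unadjusted p under 0.05 for 13.8% of all genes and 4 members. For Fzd3, Fzd5 and Axin1, which entered the tests through tdTomato alone, these p-values are no independent support for a lower level in GFP. The test has 1 residual degree of freedom and a common dispersion of 1.47 (the variance between libraries beyond counting error, relative to the squared mean), and in simulated data of that dispersion it called no changed gene, so a p above the threshold does not show that the colours were alike.

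**Figure D1:**
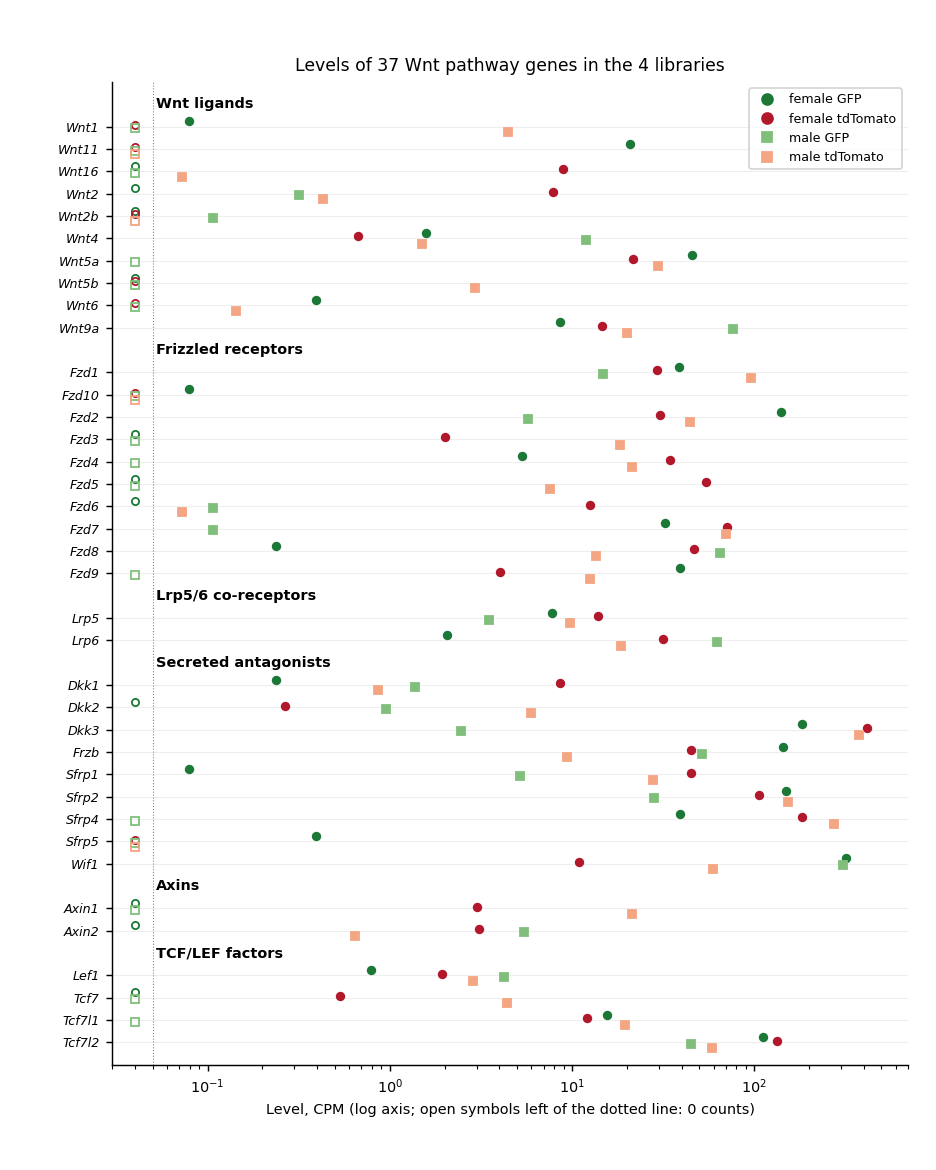
Level of each of the 37 genes in CPM (log axis) by role, with filled circles for the female and squares for the male libraries, green for GFP and red for tdTomato, and open symbols for 0 counts. Wif1 has both GFP libraries on the right at 321 and 309 CPM, and Fzd5 has both GFP libraries at 0.

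**Figure D2:**
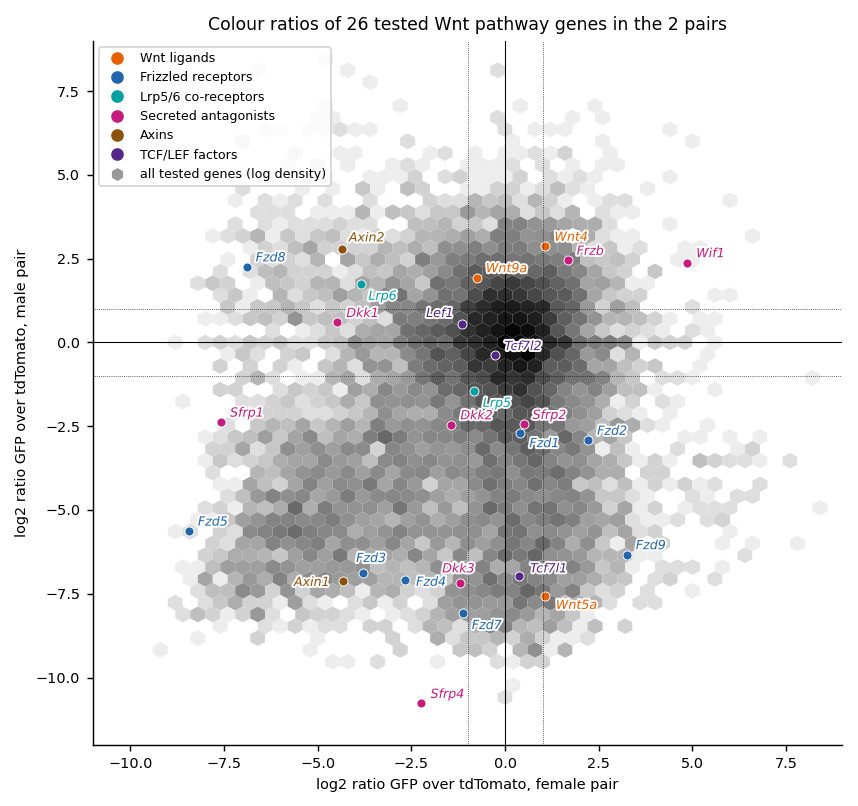
log2 ratio of GFP over tdTomato in the female pair (x axis) and the male pair (y axis) for the 26 tested genes, coloured by role, over the density of all 15055 tested genes in grey; dotted lines mark 2-fold. Wif1, Frzb and Wnt4 lie in the upper right, and the 9 genes that were lower in both pairs in the lower left.

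The promoters of Wif1, Frzb and Fzd5 are shown as examples of genes with the same direction in both pairs, 2 towards GFP and 1 towards tdTomato. Fzd5 had 813 and 106 counts in female and male tdTomato and 0 in both GFP libraries. The 3 genes were picked after their values were seen. With the windows of these genes on 1 chromosome left out, RefSeq's promoter table gave 26 of the 37 genes (34 windows). The shares over all windows kept that chromosome. Each window is the 250 bases before the start of transcription in the RefSeq build GRCm38.p6, while the counts were made on GRCm39. It was searched on both strands for the TCF/LEF core (CTTTGAT or CTTTGAA), the GC box (GGGCGG) and TATAAA, with matches in capitals. Wif1 lies at chr10:121033754-121034003 on the plus strand, Frzb at chr2:80447397-80447646 on the minus strand and Fzd5 at chr1:64737751-64738000 on the minus strand, each read here 5' to 3' along its gene.
Wif1: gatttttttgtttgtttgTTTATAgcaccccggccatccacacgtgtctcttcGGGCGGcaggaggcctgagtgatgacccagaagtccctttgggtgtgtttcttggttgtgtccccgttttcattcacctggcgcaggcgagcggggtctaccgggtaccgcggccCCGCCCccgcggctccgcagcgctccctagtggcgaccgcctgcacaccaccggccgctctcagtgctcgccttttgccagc
Frzb: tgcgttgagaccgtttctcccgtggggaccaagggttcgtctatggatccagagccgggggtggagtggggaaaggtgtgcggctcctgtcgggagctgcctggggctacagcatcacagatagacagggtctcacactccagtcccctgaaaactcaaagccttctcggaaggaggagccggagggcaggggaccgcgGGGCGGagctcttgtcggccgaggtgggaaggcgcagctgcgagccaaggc
Fzd5: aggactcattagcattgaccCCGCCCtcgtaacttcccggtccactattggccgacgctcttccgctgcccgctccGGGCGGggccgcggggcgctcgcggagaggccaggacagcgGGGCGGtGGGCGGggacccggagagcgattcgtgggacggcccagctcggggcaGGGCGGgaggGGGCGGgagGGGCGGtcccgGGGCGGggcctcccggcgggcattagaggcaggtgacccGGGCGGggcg
None of these 3 windows held the TCF/LEF core, which stood in 7.48% of all 32851 windows and in 3 of the 34 windows of these genes (Dkk1, Wnt11 and Wnt5b). The GC box stood 9 times before Fzd5, 2 times before Wif1 and 1 time before Frzb. At least 1 stood in 32.7% of all windows and in 26 of the 34. G and C made up 76.4% of the Fzd5 window, 62.8% of that of Wif1 and 64.4% of that of Frzb, beside a median of 52.4% over all windows. The shares with a GC box were not matched for this content. TATAAA stood 1 time before Wif1, read on the opposite strand, and in 12.4% of all windows and 8 of the 34. No match overlapped another. A match is a description of the letters and not a site of binding.

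Of the 10 ligands, Wnt5a, Wnt9a, Wnt11 and Wnt4 reached 10 CPM in a library. Wnt9a, a ligand known from joint and heart valve formation, measured 8.63, 14.6, 77.0 and 20.1 CPM in the 4 libraries. Male GFP stood above the other libraries and female GFP below them, so the 2 GFP values enclosed the 2 tdTomato values. The male pair had Wnt9a 3.83-fold higher in GFP (95% counting interval 3.34 to 4.42), and the female pair 1.7-fold higher in tdTomato (1.34 to 2.16). Wnt5a, the ligand best known for beta-catenin-independent signalling, measured 45.5, 21.7, 0 and 29.9 CPM. It was the most abundant ligand per length in female GFP and had no count in male GFP, where the fold below tdTomato was at least 93.5. Antisense partners of Wnt5a cannot be separated from it without strand, but the annotated one held 1 count or fewer in each library.

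Wnt4, which acts in kidney and gonad development, was the only one of the 3 tested ligands with 1 direction in both pairs. Its values were 1.58, 0.669, 12.03 and 1.51 CPM. GFP was the higher colour by 2.37-fold (1.06 to 5.67) in female and 7.96-fold (4.97 to 13.4) in male, and the female difference rests on 20 against 10 counts. The log2 ratios averaged 1.97 ± 1.27 (SD, n = 2 pairs), and edgeR's adjusted p was 1. The remaining ligands were each seen in 1 library at most above 10 counts and were left out of the tests for that reason. Wnt11, which guides cell movement in the outflow tract, had 264 counts (20.9 CPM) in female GFP and 0 in the other libraries. Wnt16 had 133 counts and Wnt2 118 counts in female tdTomato, with 1 and 6 in male tdTomato. Wnt1, whose promoter drives Cre in these mice, had 62 counts in male tdTomato, 1 in female GFP and 0 in the other libraries. Wnt5b had 41 counts in male tdTomato alone, Wnt6 had 5 and 2 counts in female GFP and male tdTomato, and Wnt2b had 1 count.

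Per kilobase of the longest annotated transcript, which allows levels of different genes to be compared, the ligands summed to 15.8, 13.9, 26.2 and 14.1 CPM per kb. The leading ligand differed between the libraries. Wnt5a (41.2%) and Wnt11 (38.5%) made up most of the female GFP sum, and Wnt9a made up 88.4% of the male GFP sum. In the tdTomato libraries Wnt9a led with 31.8% and 43.0%, followed by Wnt2 (25.2%) in female and Wnt5a (30.3%) in male.

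Of the 10 Frizzled receptors, 4 of the 8 tested were lower in GFP by at least 2-fold in both pairs, none was higher in both, and 3 went in opposite directions, against 22.9%, 5.17% and 19.2% of all genes tested. Fzd5 (ENSMUSG00000045005), a receptor with a known role in vascular and eye development, had 813 counts (54.4 CPM) in female tdTomato, 106 counts (7.63 CPM) in male tdTomato and 0 in both GFP libraries. The colours did not overlap. The folds were at least 229 in the female and at least 23.9 in the male pair, with an unadjusted p of 0.0466 and an adjusted p of 0.577 in edgeR's test. Of genes that reached 5 CPM in each tdTomato library, 4.66% had 0 counts in both GFP libraries, and of 18 such members 1 did, Fzd5. Both the test and this share took in Fzd5 through its tdTomato counts. Fzd3, a receptor that guides growing axons, had 2.01 and 18.3 CPM in female and male tdTomato and 0 in both GFP libraries, or folds of at least 8.44 and at least 57.4.

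Fzd4, the receptor of endothelial cells that answers to norrin, measured 5.31, 34.4, 0 and 21.4 CPM. Both tdTomato libraries were above both GFP libraries, by 6.49-fold (5.02 to 8.5) in female and by at least 67.1-fold in male. Fzd7 measured 32.5, 71.4, 0.106 and 70.6 CPM, so that the tdTomato libraries were alike (1.01-fold apart, 0.925 to 1.1) and the GFP libraries were not. Its female fold of 2.19 (1.95 to 2.46) and its male fold of 664 (119 to 2.62e+04) share a direction, and the latter rests on 1 count in male GFP. For Fzd4, edgeR's adjusted p was 1, as it was for Fzd7. Of the 10 endothelial markers, 8 were lower in GFP by at least 2-fold in both pairs, the same direction as Fzd4 and Fzd5, and their part in these values was not tested.

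Fzd2, Fzd8 and Fzd9 stood in a different order in the 2 GFP libraries. Fzd2 measured 142, 30.4, 5.75 and 44.5 CPM. Fzd9, which is known from brain and bone, measured 39.4, 4.01, 0 and 12.5 CPM. Both were highest in female GFP and lowest in male GFP, with the tdTomato values between. Fzd8 had the opposite order, at 0.238 (3 counts), 46.9, 65.5 and 13.6 CPM. The female pair had Fzd8 197-fold higher in tdTomato (67.2 to 959) and the male pair 4.82-fold higher in GFP (4.08 to 5.7). Fzd1 measured 38.8, 29.2, 14.8 and 96.7 CPM and thus differed little in the female pair (1.33-fold higher in GFP, 1.16 to 1.51) and 6.53-fold (5.48 to 7.84) towards tdTomato in the male pair. Fzd6 had 189 counts (12.6 CPM) in female tdTomato and 1 count or fewer elsewhere, and Fzd10 had 1 count in all.

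Per length, the Frizzled receptors summed to 73.1, 56.7, 16.1 and 64.3 CPM per kb. The sum was lowest in male GFP. Each library had another leading receptor: Fzd2 (52.8%) in GFP and Fzd7 (27.8%) in tdTomato of the female pair, Fzd8 (68.1%) and Fzd1 (35.9%) in those of the male pair. The tdTomato libraries held 9 of the 10 receptors above 0 each, female GFP 7 and male GFP 5. Some of these rest on 1 count: Fzd10 in female GFP, Fzd6 and Fzd7 in male GFP and Fzd6 in male tdTomato. Fzd8 in female GFP rests on 3 counts. Of all genes tested, 12.9% were at 0 in female GFP and 23.4% in male GFP, beside 1.5% and 2.03% in their tdTomato partners.

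The co-receptors Lrp5 and Lrp6 were both present in all 4 libraries. Lrp6, which binds Wnt ligands together with Frizzled, measured 2.06, 31.6, 63.0 and 18.6 CPM. The GFP libraries were again the lowest and the highest, as for Fzd8. It was 15.3-fold higher in tdTomato (10.3 to 23.7) in the female pair and 3.4-fold higher in GFP (2.93 to 3.95) in the male pair. Lrp5 measured 7.76, 13.98, 3.51 and 9.78 CPM and was lower in GFP in both pairs, by 1.8-fold (1.41 to 2.31) and 2.78-fold (1.89 to 4.21). Its log2 ratios averaged -1.14 ± 0.43 (SD, n = 2 pairs), and edgeR's adjusted p was 1.

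**Figure D3:**
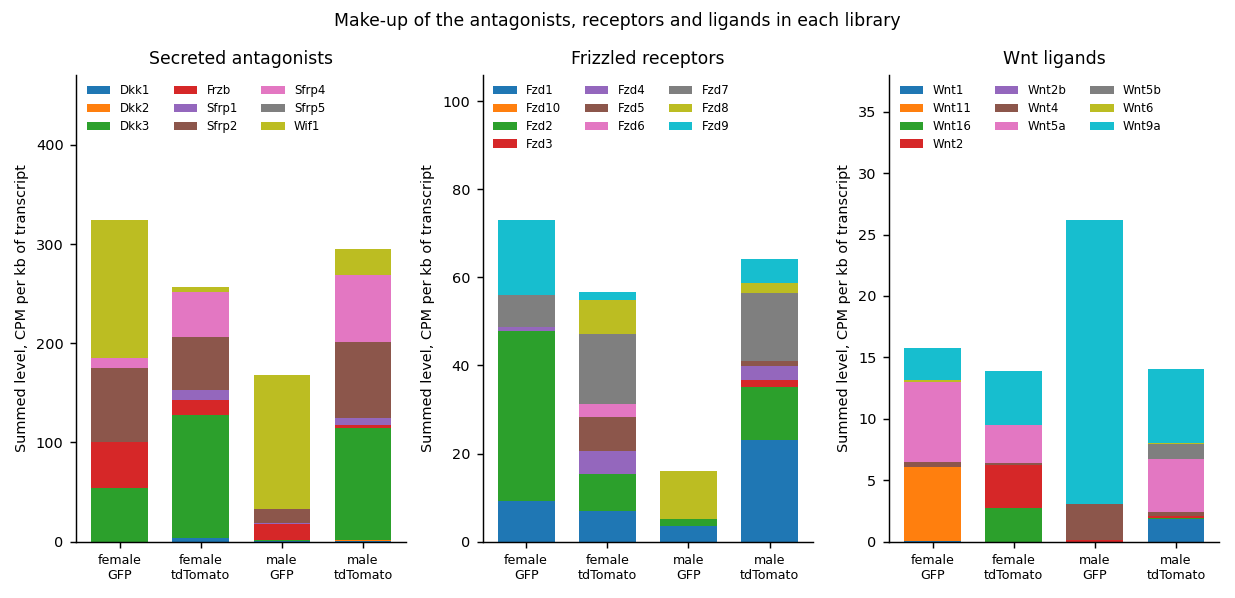
Summed level in CPM per kb of transcript (bars start at 0) of the secreted antagonists, the Frizzled receptors and the ligands in each library, split by gene. Wif1 takes 43.0% and 80.2% of the antagonist bar in female and male GFP, and Dkk3 takes 48.6% and 38.3% in the tdTomato bars.

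The secreted antagonists were the most abundant of these groups per length, at 325, 256, 168 and 295 CPM per kb, beside 13.9 to 26.2 CPM per kb for the ligands. Among the antagonists of the symbol list, which one led followed the colour. Wif1 made up 43.0% and 80.2% of the sum in the female and male GFP libraries and 1.85% and 8.77% in their tdTomato partners. Dkk3 led in tdTomato with 48.6% in female and 38.3% in male, followed by Sfrp2 (20.8% and 26.1%) and Sfrp4 (17.7% and 23.0%).

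Wif1 (ENSMUSG00000020218), a secreted protein that binds Wnt ligands, measured 321, 10.9, 309 and 59.3 CPM. The GFP libraries differed by 1.04-fold (0.987 to 1.09), and both lay above both tdTomato libraries. GFP was higher by 29.4-fold (25.1 to 34.6) in the female and 5.21-fold (4.82 to 5.64) in the male pair, and the log2 ratios averaged 3.62 ± 1.75 (SD, n = 2 pairs). edgeR's unadjusted p was 0.034 and its adjusted p 0.577, and DESeq2's adjusted p was 0.217. Unadjusted p under 0.05 with a higher level in GFP was found for 0.292% of all genes. Of the 6 Schwann cell markers listed, 4 are given here, and they do not stand for the whole list. S100b, a calcium-binding protein, measured 63.99, 6.62, 8.30 and 10.4 CPM, higher in GFP in the female pair only. Cdh19, a cadherin, had 1641 counts in female GFP and 0 in each of the others. Sox10 and Mbp were at 0 in 3 libraries and had 1 count each in male GFP. The part of such cells in the Wif1 level was not tested.

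Frzb (ENSMUSG00000027004), an antagonist related to the Sfrp family and known from cartilage, measured 143, 45.0, 51.8 and 9.35 CPM. GFP was the higher colour within each pair, but the male GFP value lay close to the female tdTomato value. The folds were 3.19 (2.92 to 3.49) and 5.54 (4.56 to 6.78), and the log2 ratios averaged 2.06 ± 0.55 (SD, n = 2 pairs). edgeR's adjusted p was 1.

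Sfrp4 and Dkk3 were abundant in 3 of the 4 libraries. Sfrp4, which binds Wnt ligands, measured 39.1, 184, 0 and 275 CPM. Both tdTomato libraries were above both GFP libraries, by 4.71-fold (4.28 to 5.19) in female and by at least 860-fold in male. Dkk3, a Dkk relative that is not a typical inhibitor of the co-receptors, measured 183, 418, 2.45 and 380 CPM. The tdTomato libraries were 1.1-fold apart (1.06 to 1.14), and the folds towards tdTomato were 2.29 (2.18 to 2.4) and 155 (103 to 245). edgeR's adjusted p was 0.939 for Sfrp4 and 0.803 for Dkk3. The fibroblast markers were mixed in male GFP, where both genes were low: 5 of the 10 had their lowest level there (Dcn, Lum, Dpt, Gsn and Ly6a) and 2 their highest (Mfap5 and Pi16). Dcn, a matrix proteoglycan, had 153 CPM in male GFP and 1920 to 2236 CPM elsewhere, whereas Mfap5, a protein of elastic microfibrils, measured 377, 298, 955 and 378 CPM. Of the 10 fibroblast markers 4 were lower in GFP by at least 2-fold in both pairs, with Pdgfra at 0 in female GFP and Dpt and Ly6a at 0 in male GFP. The part of fibroblasts in these values was not tested.

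Sfrp1 was lowest in female GFP, unlike Sfrp4 and Dkk3. It measured 0.0792 (1 count), 45.1, 5.22 and 27.8 CPM. The colours did not overlap, with folds towards tdTomato of 569 (102 to 2.25e+04) in the female and 5.32 (3.95 to 7.32) in the male pair, and edgeR's adjusted p was 1. Sfrp2 measured 150, 107, 28.1 and 154 CPM, so that 3 libraries lay within 1.5-fold and male GFP was low. Its direction differed between the pairs, 1.41-fold higher in GFP (1.32 to 1.5) and 5.48-fold higher in tdTomato (4.82 to 6.25). Dkk1, which blocks Lrp5 and Lrp6, had 129 counts (8.63 CPM) in female tdTomato and 3 to 13 counts in each of the others. Dkk2 had 83 counts (5.97 CPM) in male tdTomato, 9 in male GFP, 4 in female tdTomato and 0 in female GFP, so its place among the 9 genes lower in both pairs rests on 4 counts in the female pair. Sfrp5 had 5 counts, all in female GFP.

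Of the scaffolds that hold the beta-catenin destruction complex together, Axin1 had 3.01 and 21.5 CPM in female and male tdTomato and 0 in both GFP libraries, with folds of at least 12.7 and at least 67.3. edgeR's unadjusted p for Axin1, which entered that test through its tdTomato counts alone, was 0.0507. Axin2, which is also a widely used target gene of beta-catenin signalling, was low throughout, at 0, 3.08, 5.43 and 0.647 CPM. It was at least 12.9-fold lower in GFP in the female pair and 8.39-fold higher (4.09 to 19.4) in the male pair, on 51 counts or fewer per library.

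Among the TCF/LEF factors, Tcf7l2 was the most abundant per length in every library, with 63.8% to 91.2% of the group's sum. It measured 112, 134, 44.9 and 58.9 CPM and was the most even of the 26 tested members between the colours, 1.2-fold (1.12 to 1.28) and 1.31-fold (1.16 to 1.48) lower in GFP. Tcf7l1, which mostly acts as a repressor, measured 15.7, 12.04, 0 and 19.6 CPM, the 0 being male GFP. Lef1 measured 0.792 to 4.26 CPM with both male libraries above both female ones, and Tcf7 had 8 and 61 counts in female and male tdTomato and 0 in GFP.

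Values of 0 were more common in GFP for all genes. Of the 26 tested members, 5 (19.2%) were at 0 in GFP of the female pair, beside 12.9% of all genes tested, and 8 (30.8%) in that of the male pair, beside 23.4%. In the tdTomato libraries 0 members were at 0, against 1.5% and 2.03% of all genes. Of the genes that reached 5 CPM in each tdTomato library, 5 of 18 members had 0 counts in male GFP (Wnt5a, Fzd4, Fzd5, Sfrp4 and Tcf7l1), against 19.1% of all genes. This share picks genes by their tdTomato level, and the reverse count, of genes picked by their GFP level, is not given here. The part of lower detection in the GFP libraries in these values was not tested.

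Between the sexes, fewer members and fewer of all genes were 2-fold apart in tdTomato than in GFP. At least 2-fold lower in male than in female GFP were 13 of 26 members (40.4% of all genes), and 9 were at least 2-fold higher (27.9% of all). In tdTomato 6 were lower in male (21.6% of all) and 7 higher (20.6% of all). Frzb and Tcf7l2 were lower in male in both colours, against 10.3% of all genes, by 2.77-fold (2.5 to 3.07) in GFP and 4.81-fold (3.98 to 5.85) in tdTomato for Frzb and by 2.49-fold (2.23 to 2.79) and 2.27-fold (2.1 to 2.47) for Tcf7l2. Wnt4 and Dkk2 were higher in male in both colours, against 6.28% of all genes. edgeR's test called 0 genes between the sexes (smallest adjusted p = 1), with unadjusted p under 0.05 for 1.74% of all genes and for 1 member, Dkk2 (0.0461). DESeq2 called 0.93% of all genes and 0 members. Sex and suspension cannot be told apart here, since each sex was 1 suspension.

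Further genes of the pathway were taken from a list of 69 in 4 groups (ligand secretion and modifiers, other receptors and polarity, the intracellular core, target genes), of which 50 were tested. Lower in GFP by at least 2-fold in both pairs were 7 of these (Lgr4, Kremen1, Vangl1, Daam1, Gsk3a, Ccnd1 and Ccn4), 0 were higher in both and 13 went in opposite directions, against 22.9%, 5.17% and 19.2% of all genes tested. Their median log2 ratio was -0.16 in the female and -1.21 in the male pair, beside -0.27 and -1.0 over all genes tested. edgeR called 0 of them, and DESeq2 called Kremen1 (adjusted p = 0.0293), Daam1 (0.03935), Gsk3a (0.0461), Ccnd1 (0.02865) and Ccn4 (0.0471), all lower in GFP. Kremen1, Gsk3a and Ccnd1 passed the count filter through their tdTomato counts alone, so their direction follows from that filter.

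Several abundant genes of the list differed little between the colours. Sost, or sclerostin, an Lrp5/6 inhibitor known from bone, measured 276, 284, 256 and 215 CPM. Wls, which carries Wnt proteins to the cell surface, measured 115, 114, 107 and 162 CPM. Lgr6, a receptor for R-spondins, measured 181, 153, 102 and 86.8 CPM and was lower in the male libraries, by 1.77-fold (1.64 to 1.91) in GFP and 1.76-fold (1.64 to 1.89) in tdTomato. These 3 genes differed by 1.51-fold or less between the colours of a pair. Ctnnb1, which encodes beta-catenin, measured 622, 738, 128 and 656 CPM and was low in male GFP alone, where tdTomato was 5.12-fold higher (4.82 to 5.44).

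Some further genes were higher in GFP in both pairs but under 2-fold in at least 1 of them, among them Dvl3, Gpc4, Ror1 and Lgr6. Gpc4 was 1.58-fold (1.3 to 1.93) higher in female and 6.66-fold (3.04 to 16.6) in male. Ror1 was 1.18-fold higher in female, with an interval of 0.988 to 1.4 that includes no difference, and 3.83-fold (3.53 to 4.16) in male. Of the genes higher in both at 10 CPM or more in each GFP library, Csnk1e, Csnk1a1 and Myc ranked first by the smaller pair fold. The casein kinase gene Csnk1e, whose product phosphorylates Dishevelled, measured 35.2 and 129 CPM in female and male GFP and 18.2 and 24.2 CPM in tdTomato, or 1.93-fold (1.66 to 2.26) and 5.33-fold (4.72 to 6.03). Csnk1a1, a kinase of the destruction complex, was 1.46-fold (1.4 to 1.53) and 1.87-fold (1.78 to 1.97) higher, and Myc, a target gene of the pathway, 1.33-fold (1.18 to 1.51) and 2.07-fold (1.88 to 2.29). Of the genes lower in both at 10 CPM or more in each tdTomato library, Daam1, Gsk3a and Ccn4 ranked first in the same way. Daam1, which links Wnt signals to actin, had 3.8 and 0 CPM in female and male GFP against 52.8 and 45.8 CPM in tdTomato. Gsk3a, a kinase related to Gsk3b of the destruction complex, had 0.634 and 0 CPM against 14.6 and 16.4 CPM. Ccn4, a matricellular protein also called Wisp1, had 0 and 3.19 CPM against 77.4 and 17.4 CPM.

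The remaining abundant genes of the list differed in direction between the pairs or between the GFP libraries. Ror1, a receptor of Wnt5a, measured 21.1, 17.9, 218 and 57.0 CPM. Ryk, a Wnt-binding receptor, measured 37.3, 82.9, 181 and 50.4 CPM. Gsk3b measured 33.4, 165, 135 and 71.1 CPM. Twist1 and Bambi, both used as target genes, measured 79.4 and 132 CPM in male GFP, where each was highest, and 4.51 to 10.0 CPM and 34.0 to 55.8 CPM in the other libraries. Ror1, Ryk, Twist1 and Bambi were thus highest in male GFP, as were Wnt9a, Fzd8 and Lrp6 and others, among them Wnt4, Axin2, Lef1 and Csnk1e. Of all genes tested, 27.9% were at least 2-fold higher in male than in female GFP. The share of all genes with their highest level in male GFP was not counted. The 5 pericyte markers summed to 546, 829, 2146 and 595 CPM, also highest in male GFP. Of these, 3 were highest there, with Rgs5, a regulator of G-protein signalling, at 1690 CPM against 292 to 495 CPM elsewhere, while Notch3 was at 0 in both GFP libraries. The part of pericytes in these values was not tested.

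**Figure D4:**
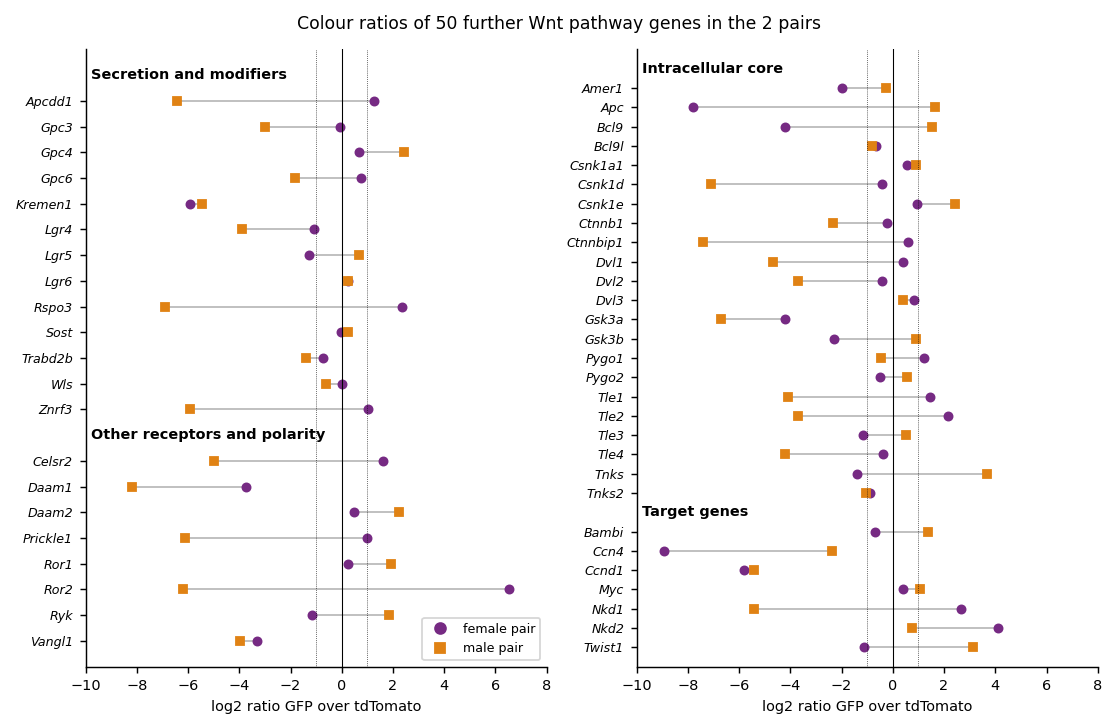
log2 ratio of GFP over tdTomato for the 50 further pathway genes tested, in 4 groups, with circles for the female and squares for the male pair joined by a line; dotted lines mark 2-fold. Sost and Lgr6 have both symbols near 0, and Daam1, Gsk3a, Kremen1 and Ccnd1 have both far to the left.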

How the data were processed

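The authors deposited estimated counts (expected counts) of reads per gene, not scaled between libraries. The SMART-Seq v4 kit, which copies polyadenylated RNA, does not mark strand, per the labels' protocols. The submitters' processing notes name fastp, HISAT2, StringTie and the build GRCm39; the counter and the annotation used are "not given in the sources used here". Symbols (matched for 76.4% of identifiers) and transcript lengths came from an annotation of GRCm38, from which no gene position was taken. It lists an overlapping antisense gene at 8 of the 37 genes.

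Counts were rounded and scaled by library total and TMM factors (0.923, 1.07, 0.931 and 1.08, in the order of the report). log2 ratios used a prior count of 2. Folds used none and carry an exact 95% binomial (Clopper-Pearson) interval. Against a library at 0 they were bounded by 3 counts in it ("at least"), and none is given where both libraries had 3 counts or fewer. Neither covers more than counting error. Genes were tested if they passed filterByExpr with a minimum of 10 counts. Colour was tested with edgeR 4.0.16's quasi-likelihood F test (R 4.3.3), which had 1 residual degree of freedom and a threshold of 0.05. The suspension was a block, because both colours of a pair were sorted from it. The p-values thus rest on how far the ratio of the colours differs between the 2 suspensions, which differ in sex as well. The estimate of that spread also draws on all genes tested. Alternatives were DESeq2 1.42.0, limma-voom from limma 3.58.1, other scalings, filters, prior counts and folds, no block, and leaving out each library. The test was tested on simulated data.

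All of the 37 genes could be named, with every library's value from 10 CPM in any library. Of the further list, the 3 most abundant genes per group were named, with up to 3 per direction, ranked by the smaller pair fold and with 10 CPM or more in each library of the higher colour. The genes, lists and rules were chosen with earlier results of these data known, and other genes named were chosen after their values were seen. Part of the Schwann cell marker list, and its sum, is not reported here. Figures were drawn with matplotlib 3.10.9.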

Additional observations from a re-analysis of the deposited data

Results flagged for a closer look

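For 6 genes the colours differed at least 2-fold in opposite directions in the 2 pairs, beside 19.2% of all genes tested. The values are the female minus the male log2 ratio of GFP over tdTomato. With 1 library for each sex and colour, the difference itself was not tested. Towards GFP in the female pair were Wnt5a, with a difference of 8.64 (1.07 in the female and -7.58 in the male pair), Fzd2, with 5.13 (2.21 and -2.92), and Fzd9, with 9.58 (3.25 and -6.33). Towards GFP in the male pair were Fzd8, with -9.15 (-6.90 and 2.25), Lrp6, with -5.59 (-3.84 and 1.76), and Axin2, with -7.16 (-4.36 and 2.80). Ratios against a library at 0 (Wnt5a and Fzd9 in male GFP, Axin2 in female GFP) depend on the prior count and are not bounds.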

How the results depend on the processing

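DESeq2 called 1157 genes between the colours and 140 between the sexes, where edgeR called 0. Without a filter edgeR called 2 genes between the sexes. Without the replicate block, that is, without the pairing by suspension, edgeR called 0 genes in each comparison, and no call among the 37 genes was altered. Under library totals the median log2 ratio of all genes moved by -0.21 in the female and -0.20 in the male pair, and under DESeq2's size factors by 0.12 and 0.22. At a minimum of 4-fold, 1 gene was higher in GFP in both pairs (Wif1), 0 were lower in male in both colours and 1 was higher. The latter count was 1 with a prior count of 5 and 0 with a minimum of 50 counts. Wnt4 left the set higher in GFP in both pairs under library totals, a prior count of 5 and a minimum of 50 counts. For genes lower in GFP in both pairs the count was 10 under library totals and 8 with a prior count of 5. It was 6 with a minimum of 50 counts and at 4-fold. Opposite directions were counted for 5 genes under library totals, where Wnt5a left the set. That count was also 5 with a minimum of 50 counts and 4 at 4-fold. Leaving out 1 library leaves 1 comparison in place of 2, so the counts then cover that comparison alone: 14 to 16 lower and 6 to 7 higher in GFP, 6 to 13 lower and 7 to 9 higher in male. The count of opposite directions needs both pairs and was not run so. The fits without 1 library also dropped the block, so the library left without its partner entered the ratio unpaired. In these fits the log2 ratio of GFP over tdTomato ranged from -8.44 to 0.79 for Dkk2 and from -1.03 to 0.41 for Tcf7l2. Within the intact pairs the ratio of Dkk2 was -1.43 in female and -2.46 in male. That of male over female ranged from -10.94 to 1.01 for Fzd4, from -8.80 to 0.46 for Fzd7 and from -6.93 to 0.35 for Dkk3. edgeR called none of these ratios in any such fit. Depth limits statements on genes with under 10 counts, and 11 of the 37 genes entered no test.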

Other observations

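Of the 13 further pathway genes with opposite directions in the pairs, 8 were higher in GFP in the female and lower in the male pair, and 6 of these had 0 counts in male GFP. Of all genes tested, 23.4% had 0 counts in male GFP, and 40.4% were at least 2-fold lower in male than in female GFP. The split by direction was not counted over all genes. The examples here were chosen after their values were seen. Rspo3, a secreted R-spondin that strengthens Wnt signals, measured 171 and 33.8 CPM in GFP and tdTomato of the female pair and 0 and 18.6 CPM in those of the male pair. Znrf3, a ligase that removes Frizzled receptors from the surface and is opposed by R-spondins, measured 49.6, 24.2, 0 and 9.42 CPM in that order. Nkd1, a feedback inhibitor of the pathway, measured 26.7, 4.08, 0 and 6.62 CPM, and Apcdd1, a membrane inhibitor, 42.1, 17.3, 0.213 and 31.4 CPM. All 4 were lowest in male GFP, the order also found for Wnt5a, Fzd2 and Fzd9. Nkd2 measured 26.7 CPM in female GFP and 1.4 CPM or less in the other libraries, whereas Axin2 had 0 counts in female GFP.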
